A study of Homo sapiens with 27 samples.

Results

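The comparison set shSIRT3-2 against shSIRT3-1 in OCI-Ly1, a cell line of germinal center type diffuse large B-cell lymphoma (DLBCL). Both hairpins are directed against SIRT3 mRNA. Genes entered the test where 3 or more of the 6 hairpin libraries reached 1 CPM (reads scaled to the library's total), which gave 11028 of 27115 genes. Each hairpin was measured in 3 libraries of total RNA taken on day 8 after lentiviral infection, and OCI-Ly1 cells with a scrambled hairpin (shCTRL) gave 3 further libraries. Karpas422 and HBL1, other DLBCL lines, received the same hairpins and supplied the same contrast in libraries of their own, within a series of 27 libraries. All vectors were pLKO.1 lentiviruses that carry puromycin resistance and coexpress yellow fluorescent protein, so the control cells share infection and vector. Whether the replicates came from separate infections or cultures is not given in the labels, so p-values measure the spread between these libraries, which may be technical. The cells were populations, and fewer cells expressing a gene and less of its RNA per cell cannot be told apart.

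SIRT3 is a deacetylase of the mitochondrial matrix that removes acetyl groups from metabolic enzymes, glutamate dehydrogenase among them. A short hairpin RNA is cut by DICER1 into a short duplex, and the guide strand loaded into an Argonaute protein directs the silencing of a matching mRNA. The seed bases near the 5′ end of a guide strand can also pair with the 3′ untranslated regions (3′ UTRs) of other mRNAs, so hairpins against the same gene can lower different other transcripts, and comparing them separates what they share from what they do not.

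The 6 libraries held between 40674045 and 47960437 reads on genes. All 8 B-cell markers examined, among them MS4A1 (CD20), CD79A, CD79B, PAX5 and CD22, were expressed above the filter, and their summed level was 2534 to 2950 CPM with shSIRT3-1 and 2417 to 2764 CPM with shSIRT3-2. Of 7 germinal center markers 5 passed the filter, while LMO2 stayed at or below 0.0398 CPM and SERPINA9 at or below 0.227 CPM in the 9 OCI-Ly1 libraries. Of 7 T-cell markers only LCK passed the filter, and none of 8 myeloid, 6 fibroblast or 7 epithelial markers did. CD3D, CD3E and CD3G stayed at or below 0.05 CPM and TRAT1, LUM, KRT8 and CDH1 were at 0 in the 9 OCI-Ly1 libraries. The epithelial list's CDH2 was at 1.94 CPM in shSIRT3-1 replicate 1, at 0.467 CPM in shCTRL replicate 2 and at or below 0.109 CPM elsewhere, and HLA-DRA, below the filter, was at 1.64 CPM in the same shSIRT3-1 library, at 0.268 CPM in the same control library and at or below 0.0891 CPM elsewhere. Replicate 2 of both hairpins stood apart from replicates 1 and 3 on the second principal component (34.5% of the variance), while the first (52%) separated the hairpins. Replicate 2 of shCTRL also stood apart, with 67.2 CPM of CHAC1, a target of the stress factor ATF4, against 1.99 and 2.23 CPM in the other control libraries, so values against the control are given for orientation and with that library left out where this changed a call.

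SIRT3 itself (chr11:215030-236931, hg19, minus strand) was reduced less by shSIRT3-2 than by shSIRT3-1. The shSIRT3-1 libraries held 2.23, 1.06 and 1.62 CPM and the shSIRT3-2 libraries 6.17, 4.06 and 6.03 CPM, against 10.7, 13.8 and 9.98 CPM with shCTRL. No library of any group overlapped another group. SIRT3 was 3.25-fold higher with shSIRT3-2 than with shSIRT3-1 (log2 difference 1.70 ± 0.28 SE, n = 3 per hairpin, limma adjusted p = 0.0143). The call was lost when shSIRT3-1 replicate 3, shSIRT3-2 replicate 1 or shSIRT3-2 replicate 3 was left out, with limma adjusted p = 0.0594 at most. Relative to shCTRL the log2 differences were -2.78 with shSIRT3-1 (limma adjusted p = 0.00236) and -1.08 with shSIRT3-2 (limma adjusted p = 0.0351). The second of these calls was lost without shCTRL replicate 2 or 3, at limma adjusted p = 0.0973 and 0.0772. In the other lines the same order was seen, with 2.44 to 2.79 CPM against 4.41 to 6.24 CPM in Karpas422 and 2.00 to 2.39 CPM against 2.84 to 3.82 CPM in HBL1. The other 5 sirtuins tested were not called, and SIRT1, the nuclear deacetylase, differed by 0.20 on the log2 scale. The degree of SIRT3 reduction and the identity of the hairpin therefore differed together in every library compared, and their parts in any result cannot be told apart.

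The hairpins differed in 653 of the 11028 genes tested (5.92%), called at a fold above 1.5 and a limma adjusted p under 0.05. Of these, 357 genes (3.24%) were lower and 296 (2.68%) higher with shSIRT3-2. The median log2 difference was -0.86 among the lower genes and 0.76 among the higher genes, against -0.03 over all genes tested. In 4292 genes (38.9%) the 3 libraries of a hairpin all lay above the 3 of the other, and every called gene was among them. A total of 84 genes reached the filter only through shSIRT3-1, 55 of them called, and 11 only through shSIRT3-2, 4 of them called, so these had to differ. Among the other 10933 genes, 594 were called, 302 of them lower. Same-numbered libraries deviated together, and replicates 1 and 3 also did so across their numbers. With the replicate number as a block 537 genes were lower and 409 higher, all 653 among them. With median-ratio scaling between libraries the split turned, to 305 lower and 381 higher genes. Leaving out 1 library gave between 98 and 379 lower and between 122 and 280 higher genes. The fewest lower and higher calls, 98 and 122, came without shSIRT3-1 replicate 3, and the counts were 161 and 169 without shSIRT3-1 replicate 1, 235 and 184 without shSIRT3-2 replicate 1, and 165 and 132 without shSIRT3-2 replicate 3.

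The genes with the 12 lowest differences are described first, among called genes with a mean of at least 5 CPM in the higher hairpin and hairpin libraries that do not overlap. FCRL2 (chr1:157715523-157746922, minus strand), an inhibitory Fc receptor-like protein of the B-cell surface, was at 13.2, 10.4 and 13.2 CPM with shSIRT3-1 and at 1.99, 1.36 and 1.5 CPM with shSIRT3-2. The groups were far apart, and FCRL2 was 7.25-fold lower with shSIRT3-2 (log2 difference -2.86 ± 0.17 SE, limma adjusted p = 0.00167). The control libraries lay between them at 8.82, 6.02 and 7.95 CPM.

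PTPN6 (chr12:7055631-7070479, plus strand) encodes SHP-1, a phosphatase that dampens signals from the B-cell receptor. It was at 13.8, 10.2 and 16.0 CPM with shSIRT3-1 and at 2.19, 1.78 and 1.92 CPM with shSIRT3-2, a 6.42-fold lower level (log2 difference -2.68 ± 0.18 SE, limma adjusted p = 0.00293). The control libraries were uneven, at 4.02, 4.92 and 13.7 CPM, and shSIRT3-2 was called against them (log2 difference -1.68, limma adjusted p = 0.0291). PTPN6 was not called with shSIRT3-1 (log2 difference 1.00), but without shCTRL replicate 3 it was (log2 difference 1.54, limma adjusted p = 0.0270).

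RNF7 (chr3:141457091-141466402, plus strand), the RING subunit of cullin ubiquitin ligases, was at 40.6, 39.1 and 40.0 CPM with shSIRT3-1 and at 11.5, 7.49 and 10.8 CPM with shSIRT3-2. It was 4.04-fold lower with shSIRT3-2 (log2 difference -2.02 ± 0.16 SE, limma adjusted p = 0.00347). The control libraries, at 30.8 to 37.2 CPM, lay just below shSIRT3-1.

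CAMP, the cathelicidin antimicrobial peptide, fell by 2.48 on the log2 scale, from 6.88 to 13.8 CPM with shSIRT3-1 to 1.04 to 2.31 CPM with shSIRT3-2. SLC16A4, of the monocarboxylate transporter family, fell by 1.59 from 10.6 to 12.3 CPM to 3.15 to 4.5 CPM. LOC100132078 fell by 2.65, from 9.0 to 12.2 CPM to 0.823 to 2.35 CPM, but it was matched to no gene of the annotation used, and reads that it may share with similar loci make its value uncertain. The interferon-responsive PARP14 and SAMD9L, described with their list, complete the 8 of these 12 genes that kept their call whichever library was left out.

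The other 4 of the 12 lost their calls when single libraries were left out. F13A1, the A subunit of coagulation factor XIII, was at 28.1, 98.2 and 37.5 CPM with shSIRT3-1 and at 12.6, 18.1 and 11.4 CPM with shSIRT3-2, so that replicate 2 was highest with both hairpins. Its log2 difference of -1.77 (limma adjusted p = 0.0437) kept the call only when shSIRT3-1 replicate 2 was left out and otherwise reached limma adjusted p = 0.123. CBLN3 (-1.61), of the cerebellin family, lost its call with any library left out, at limma adjusted p = 0.0598 to 0.104. LINC00877 (-1.68), a long noncoding RNA, and NAPSB (-1.60), a napsin pseudogene whose reads may be shared with its paralog, lost it without replicate 1 or 3 of shSIRT3-1 or replicate 3 of shSIRT3-2, at up to limma adjusted p = 0.128 and 0.113. With the replicate block all 4 were called, at limma adjusted p = 0.00399, 0.0270, 0.00190 and 0.000978 in the order given.

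Among the genes with the 12 highest differences, NAV3 (chr12:77718421-78606790, plus strand), a microtubule-associated neuron navigator, was at 0.553, 1.64 and 0.487 CPM with shSIRT3-1 and at 5.45, 20.3 and 7.16 CPM with shSIRT3-2. The difference was the largest of all higher calls at 10.7-fold (log2 difference 3.42 ± 0.58 SE, limma adjusted p = 0.0153). Replicate 2 was highest with both hairpins, and without shSIRT3-1 replicate 1, shSIRT3-1 replicate 3 or shSIRT3-2 replicate 3 the call was lost, at up to limma adjusted p = 0.0645.

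PHYH (chr10:13319796-13344412, minus strand), the peroxisomal hydroxylase of phytanic acid breakdown, was at 1.51, 3.69 and 1.78 CPM with shSIRT3-1 and at 10.9, 24.1 and 13.4 CPM with shSIRT3-2. It was 6.78-fold higher with shSIRT3-2 (log2 difference 2.76 ± 0.39 SE, limma adjusted p = 0.0102). The control libraries, at 1.88 to 2.88 CPM, lay with shSIRT3-1.

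FCMR, the Fc receptor for immunoglobulin M, rose by 1.98 on the log2 scale, from 1.03 to 2.39 CPM to 5.05 to 8.31 CPM, and C10orf71 by 2.26, from 1.07 to 2.08 CPM to 5.24 to 12.8 CPM. CNR1, a cannabinoid receptor of germinal center B cells, rose by 1.88, from 27.6 to 49.0 CPM to 94.0 to 178 CPM. FCMR, C10orf71 and CNR1 lost the call without shSIRT3-1 replicate 3, at limma adjusted p = 0.0616, 0.0638 and 0.0548, and C10orf71 also without shSIRT3-1 replicate 1.

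A further 5 of the highest 12 kept their calls with any library left out. MBNL3, a splicing regulator, rose by 1.76 on the log2 scale and NREP by 1.73. MFGE8, a secreted protein that binds phosphatidylserine, rose by 1.67. The ephrin EFNA5 rose by 1.65 and SSBP3 by 1.61. All 5 were also called higher with shSIRT3-2 than with shCTRL, by 1.00 for MBNL3 to 1.37 for MFGE8 on the log2 scale, and the calls of MBNL3, MFGE8 and EFNA5 were lost without shCTRL replicate 3.

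**Figure D1:**
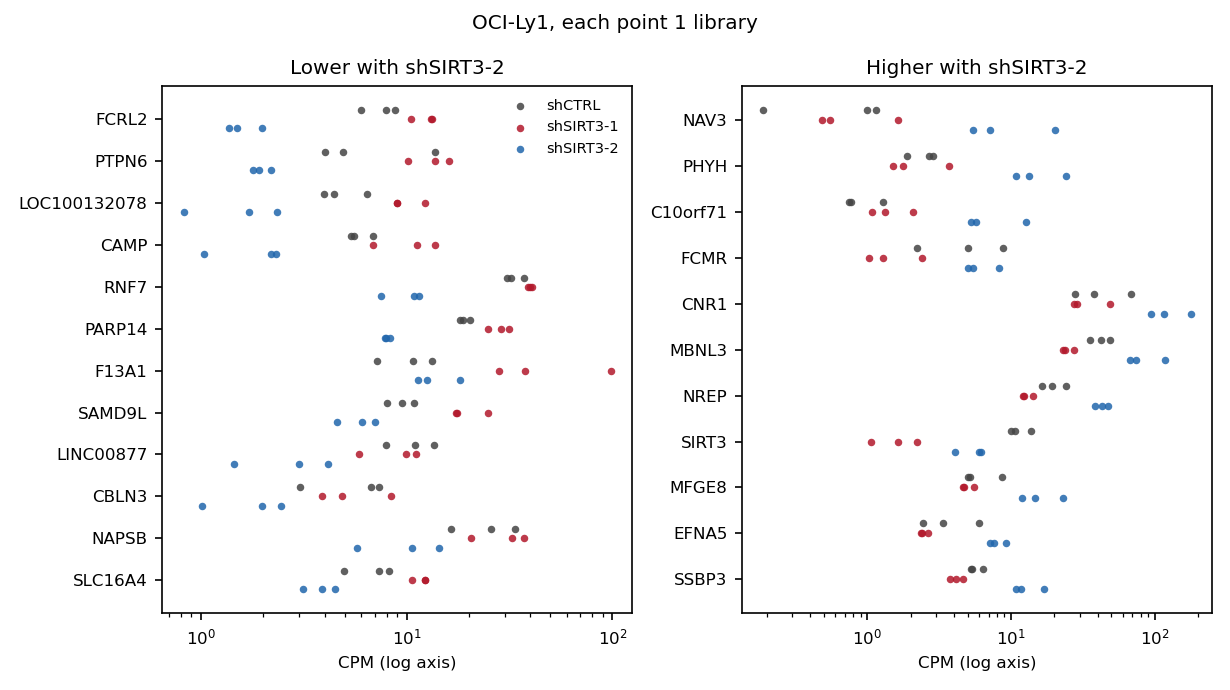
CPM on a log axis (x axis) in each of the 9 OCI-Ly1 libraries, colored by group, for the 12 genes of the lowest and 11 of the 12 genes of the highest differences, SIRT3 among the latter (y axis). Genes were chosen so that the 3 shSIRT3-2 libraries lie wholly below or wholly above the 3 shSIRT3-1 libraries. The shCTRL libraries, which the choice did not use, lie now with one hairpin, now with the other.

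The control libraries did not place the differences with a single hairpin. Against shCTRL, shSIRT3-1 was called higher in 229 genes (2.04%) and lower in 275 (2.45%) of 11205, and shSIRT3-2 higher in 241 (2.15%) and lower in 477 (4.26%). These contrasts share their control libraries. Without shCTRL replicate 2 the counts were 114 and 107 for shSIRT3-1 and 148 and 208 for shSIRT3-2, and without shCTRL replicate 3 they were 51 and 90, and 64 and 132. Without shCTRL replicate 1 they rose to 551 and 582, and to 511 and 810. Of the 296 genes higher with shSIRT3-2, the control mean lay nearer to or beyond shSIRT3-1 in 139 and nearer to or beyond shSIRT3-2 in 157. Of the 357 lower genes the corresponding counts were 230 and 127.

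Interferon-stimulated genes were the list most often lower with shSIRT3-2. Type I interferons bind a receptor at the cell surface, and a factor that contains STAT2 and IRF9 then switches on antiviral effectors, among them the OAS enzymes that sense double-stranded RNA, the MX guanosine triphosphatases, and the ubiquitin-like modifier ISG15. Of 37 listed genes, 28 were tested and 17 (60.7%) were called lower with shSIRT3-2, against 3.24% of all genes tested, and the median log2 difference was -0.91 against -0.03. A fit over all 27 libraries called 9 lower. The difference was negative in 27 of the 28, and in 26 all 3 shSIRT3-2 libraries lay below the 3 shSIRT3-1 libraries, against 20.8% of all genes. Limma called none higher, 0 were higher at an unadjusted p under 0.05, and edgeR called 0 higher and 16 lower. Of the 28, 6 had passed the filter only through shSIRT3-1, 5 of them called, and among the other 22 genes 12 were called lower with a median of -0.63. The 6 genes had to lie lower with shSIRT3-2, and every count out of 28 includes them. The same-numbered pairs of libraries gave medians of -0.79, -0.92 and -0.92.

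Among the antiviral effectors, PARP14 (chr3:122399686-122449687, plus strand), a mono-ADP-ribosyltransferase, was at 28.7, 24.7 and 31.3 CPM with shSIRT3-1 and at 7.96, 8.30 and 7.87 CPM with shSIRT3-2. It was 3.47-fold lower with shSIRT3-2 (log2 difference -1.79 ± 0.10 SE, limma adjusted p = 0.00167), and the control libraries, at 18.2 to 20.4 CPM, lay between. SAMD9L (chr7:92759369-92777698, minus strand), a translation inhibitor induced by interferon, was at 17.3, 24.9 and 17.6 CPM with shSIRT3-1 and at 6.09, 7.01 and 4.57 CPM with shSIRT3-2 (log2 difference -1.74 ± 0.20 SE, limma adjusted p = 0.00674).

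MX1, which blocks viral nucleocapsids, was at 51.1, 50.6 and 46.1 CPM with shSIRT3-1 and at 27.2, 26.2 and 18.5 CPM with shSIRT3-2, while the control libraries held 27.9, 25.2 and 17.9 CPM. The shSIRT3-2 and control libraries thus overlapped, and shSIRT3-1 stood above both. OAS1 showed the same order, with 18.5, 26.9 and 17.1 CPM for shSIRT3-1, 9.75, 7.44 and 6.94 CPM for shSIRT3-2 and 10.9, 6.23 and 6.48 CPM for shCTRL. IFI44 was at 2.28, 4.03 and 2.28 CPM with shSIRT3-1, at 0.366, 0.529 and 0.245 CPM with shSIRT3-2 and at 0.0931, 0.147 and 0.0796 CPM with shCTRL, so it passed the filter only through shSIRT3-1.

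The log2 differences of the remaining called members ranged from -2.50 for IFI44L to -0.61 for IFI35 and IFIH1. IFIH1, the RNA sensor MDA5, lost its call with any library left out, at limma adjusted p = 0.0417 to 0.140 and, in the lowest, a fold under 1.5. Of the 17 called members, 9 kept their call in every fit that left out a library and still tested them, and leaving out 1 library gave between 6 and 16 lower calls. The lowest count, 6, came without shSIRT3-1 replicate 3, when members that pass only through shSIRT3-1 no longer reach the filter, 7 were called without shSIRT3-1 replicate 1, and 11 without shSIRT3-1 replicate 2 or shSIRT3-2 replicate 3. Neither STAT2 nor IRF9 was called. STAT2 differed by -0.03 on the log2 scale, and IRF9, at -0.51 (limma adjusted p = 0.0457), was below the fold threshold. ISG20, a nuclease, was the single member with a positive difference (0.10).

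Against the control, 15 of the 28 were called higher with shSIRT3-1, with a median of 0.76, and 2 higher and 1 lower with shSIRT3-2, with a median of -0.01. Without shCTRL replicate 2 these counts were 13 with shSIRT3-1 (median 0.75) and 0 higher and 1 lower with shSIRT3-2 (median -0.06), and without shCTRL replicate 3 only 5 were called with shSIRT3-1. PARP14, called lower with shSIRT3-2 (log2 difference -1.24, limma adjusted p = 0.00147), was the 1 lower call. The 2 higher calls, IFI44 and IFI27, were lost without shCTRL replicate 2 or 3. Both are among the 6 genes that passed the filter only through shSIRT3-1. Counts of the 28 against the control include these 6, and the other 22 were not counted alone. Another 9 listed genes, IFIT1, IFIT2, IFIT3, OASL, RSAD2, HERC5, USP18, CMPK2 and LGALS3BP, were below the filter in OCI-Ly1.

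The direction in the other lines was the opposite. With the same contrast, 8 of the 28 genes were called higher and 0 lower with shSIRT3-2 in Karpas422 (median 0.51), and 17 higher and 0 lower in HBL1 (median 1.25). Of all genes tested in OCI-Ly1 and Karpas422, 6.41% were called higher and 3.19% lower in Karpas422 (median 0.09). For HBL1 these shares were 11.2% and 9.83% (median 0.04). The difference was negative in OCI-Ly1 and positive in both other lines for 26 of the 28, the exceptions being ISG20 and PARP14, at -0.09 in Karpas422. In OCI-Ly1 the filter fixed the negative sign of the 6 genes that passed only through shSIRT3-1, which all counts of the 28 include. IFI6 was at a mean of 6.27 CPM with shSIRT3-1 and 2.84 CPM with shSIRT3-2 in OCI-Ly1, while the means were 142 and 297 CPM in Karpas422 and 46.6 and 239 CPM in HBL1. The contrast between lines was tested as an interaction over 18 libraries and 12743 genes, and it was called in 2.64% of all genes against Karpas422 (1.09% higher and 1.55% lower in OCI-Ly1) and in 16.6% against HBL1 (6.46% higher and 10.1% lower). Of the 28 genes it was called lower in OCI-Ly1 in 13 against Karpas422, in 24 against HBL1 and in 13 against both, and higher in none by limma. Without replicate 1 of every group limma called the interaction against Karpas422 in 0 of all genes (301 higher and 534 lower at an unadjusted p under 0.05) and against HBL1 in 3 higher and 3 lower, and without replicate 2 in 11 higher and 6 lower against Karpas422. For IFI6 the OCI-Ly1 difference was -2.20 relative to Karpas422 (limma adjusted p = 0.0291) and -3.68 relative to HBL1 (limma adjusted p = 0.00037) on the log2 scale. The level of IFI6 was also lower in OCI-Ly1 than in the other lines, and the part of this in the result was not tested.

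**Figure D2:**
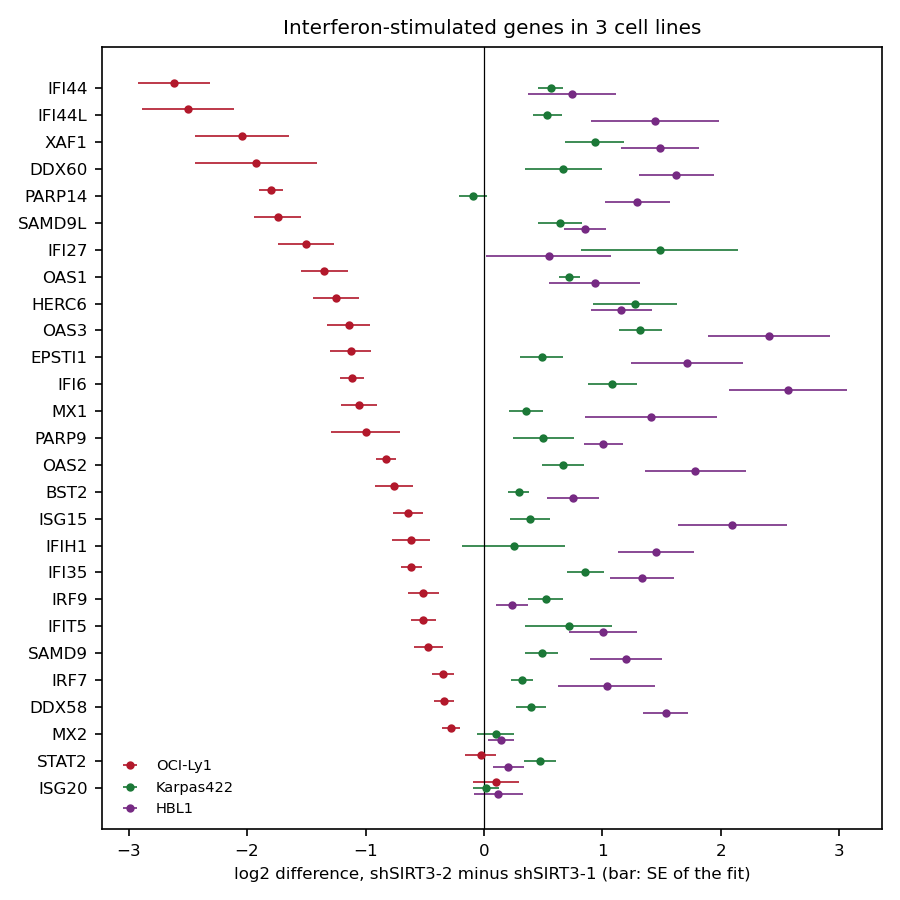
Log2 difference of shSIRT3-2 minus shSIRT3-1 (x axis, log2 CPM) of 27 of the 28 interferon-stimulated genes tested in OCI-Ly1 (y axis), with a point and a bar of ± 1 SE of the fit for each of OCI-Ly1, Karpas422 and HBL1. All genes shown but ISG20 and PARP14 have the OCI-Ly1 point left of 0 and those of both other lines right of 0.

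In the lists of metabolism few genes were called. ATF4 is the transcription factor that raises amino acid synthesis and import when amino acids are short. Of its 30 targets tested, 1 was higher and 1 lower (3.33% each, against 2.68% and 3.24% of all genes tested), with a median of -0.05. The glutamine and alanine transporter SLC38A2 was at 150, 114 and 137 CPM with shSIRT3-1 and at 219, 232 and 214 CPM with shSIRT3-2 (log2 difference 0.74, limma adjusted p = 0.0108). The tryptophanyl-tRNA synthetase WARS was lower by 0.62 on the log2 scale, at 40.7 to 43.2 CPM against 24.1 to 31.1 CPM. WARS lost the call without shSIRT3-1 replicate 1 or 3 or shSIRT3-2 replicate 2 or 3. It was the 1 call among 20 cytosolic aminoacyl-tRNA synthetases (5% lower, against 3.24% of all genes tested). Of these 20 differences 17 were negative and 3 positive, with a median of -0.19. Limma gave 0 higher and 9 lower at an unadjusted p under 0.05. In 9 all 3 shSIRT3-2 libraries lay below the 3 shSIRT3-1 libraries, against 20.8% of all genes. Asparagine synthetase, ASNS, at 59.9 to 72.1 CPM with shSIRT3-1 and 42.7 to 48.1 CPM with shSIRT3-2, differed by -0.56 and was below the fold threshold.

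Of 31 glycolysis and hypoxia genes 1 was called (3.23% higher, against 2.68% of all genes tested). This was the platelet isoform of phosphofructokinase PFKP, at 55.6, 34.7 and 52.0 CPM with shSIRT3-1 and 121, 77.6 and 131 CPM with shSIRT3-2 (log2 difference 1.20, limma adjusted p = 0.0252). The list's median was 0.34, and the replicate block called 3 of its 31 genes higher, against 409 of all 11028 genes tested. PFKP lost its call without replicate 1 or 3 of either hairpin, at up to limma adjusted p = 0.0833. Of 32 sterol and fatty acid synthesis genes 1 was called (3.12% lower, against 3.24% of all genes), the isoprenoid isomerase IDI1 (log2 difference -0.67). Limma called 0 of 53 respiratory chain genes, 0 of 30 TCA cycle and glutamine entry genes and 0 of 17 mitochondrial aminoacyl-tRNA synthetases, and edgeR also called 0 in each. At an unadjusted p under 0.05 they held 3 higher and 11 lower, 6 higher and 5 lower, and 1 higher and 1 lower genes. UQCRH of complex III differed by -0.45 on the log2 scale and ACO1, the cytosolic aconitase, by 0.48, both under the fold threshold.

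Among lists of growth and stress, 3 of 23 p53 targets were higher with shSIRT3-2, against 2.68% of all genes tested. MDM2, the ubiquitin ligase of p53, rose by 0.71 on the log2 scale, the sestrin SESN1 by 0.65 and the growth arrest gene GADD45A by 0.63, while the list's median was -0.11 and TIGAR differed by -0.47. The calls of MDM2, SESN1 and GADD45A were lost without 3 or 4 of the 6 libraries in turn, at up to limma adjusted p = 0.113, 0.0700 and 0.0646. The replication helicase subunit MCM6 rose by 0.60, the 1 call among 48 replication and mitosis genes (2.08%, against 2.68%), whose median was 0.14. RPL15 was at 172, 121 and 178 CPM with shSIRT3-1 and 268, 239 and 266 CPM with shSIRT3-2. It was the 1 call among 63 cytosolic ribosomal proteins (1.59% higher, against 2.68%), whose median was -0.07. The many processed pseudogenes of RPL15 make its read assignment uncertain. MCM6 and RPL15 lost their calls in 5 of the 6 fits that left out a library. Limma and edgeR called 0 of 24 genes of ER folding and the unfolded protein response and 0 of 18 cytosolic heat shock genes, with 0 higher and 6 lower, and 1 higher and 1 lower genes at an unadjusted p under 0.05. Of 45 autophagy and lysosome genes 2 were lower (4.44%, against 3.24% of all genes tested), the autophagy receptor OPTN by 0.87 and cathepsin H, CTSH, by 1.03. Both lost their calls in 5 of the 6 fits that left out a library.

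Of 54 replication-dependent histone genes 5 passed the filter, and all 5 differences were negative, with a median of -1.30. Limma and edgeR called 0, and 1 gene had an unadjusted p under 0.05. With the replicate block 4 of the 5 were called lower, against 537 of all 11028 genes tested. HIST1H1C, a linker histone, was at 3.57, 21.3 and 5.02 CPM with shSIRT3-1 and at 1.84, 3.44 and 2.09 CPM with shSIRT3-2, so that replicate 2 was highest with both hairpins and set the spread.

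Of the 8 B-cell markers, whose median was 0.08, MS4A1 was called. MS4A1, which encodes CD20, was at 385, 357 and 381 CPM with shSIRT3-1, at 195, 177 and 161 CPM with shSIRT3-2 and at 252, 147 and 144 CPM with shCTRL (log2 difference between hairpins -1.08 ± 0.09 SE, limma adjusted p = 0.00419). The shSIRT3-2 and control libraries overlapped, and the shSIRT3-1 libraries lay above both. MS4A1 was the 1 call of its list (12.5% lower, against 3.24% of all genes) and kept its call with any library left out.

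Of 16 MHC class II genes 8 were tested, and 2 of these were lower (25%, against 3.24% of all genes). HLA-DRA, HLA-DRB1, HLA-DRB5, HLA-DPA1, HLA-DPB1, HLA-DQA1 and HLA-DQB1 were below the filter in OCI-Ly1. HLA-DRA reached 1.64 CPM in shSIRT3-1 replicate 1, and all other values of these genes were at or below 0.435 CPM. HLA-DMB, of a peptide exchange factor, and HLA-DOB fell by 1.66 and 1.44 on the log2 scale. HLA-DOB was at 4.4, 2.88 and 4.19 CPM with shSIRT3-1 and at 1.52, 1.02 and 1.47 CPM with shSIRT3-2, and lost its call without shSIRT3-1 replicate 3 (limma adjusted p = 0.0583). HLA-DMB passed the filter only through shSIRT3-1, so that 1 of the other 7 genes was called, and lost its call without shSIRT3-2 replicate 1 or 3, at up to limma adjusted p = 0.0808. With the replicate block 4 of the 8 were lower, against 537 of all 11028 genes tested. CIITA, the master regulator of the class, was among the 4 (limma adjusted p = 0.00144), and without the block its log2 difference was -0.98 (limma adjusted p = 0.0821).

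Of 18 chemokine, cytokine and homing genes 3 were lower, against 3.24% of all genes, and 2 of 17 without LTA. The receptor IL10RA was at 4.29, 3.64 and 4.49 CPM with shSIRT3-1 and at 1.89, 1.59 and 1.71 CPM with shSIRT3-2 (log2 difference -1.21, limma adjusted p = 0.0067). IL21R fell by 1.17 and lymphotoxin alpha, LTA, by 1.95, from 2.80, 1.39 and 2.78 CPM to 0.643, 0.323 and 0.579 CPM. LTA passed the filter only through shSIRT3-1 and is also the 1 call among 22 NF-kappaB genes (4.55% lower, against 3.24% of all genes). LTA lost the call without shSIRT3-2 replicate 3 (limma adjusted p = 0.0517). IL21R lost its call without shSIRT3-1 replicate 1 or shSIRT3-2 replicate 3 (limma adjusted p = 0.0582 at most). LTB, the partner of LTA, was at 27.4, 9.27 and 27.2 CPM and at 8.03, 1.91 and 7.18 CPM, a log2 difference of -1.96 that was called with the replicate block (limma adjusted p = 0.000879) and not without it (limma adjusted p = 0.0841). The block called 5 lower and 2 higher among the 18 genes of the chemokine list, 3 lower among the 22 NF-kappaB genes and 3 lower among 29 B-cell receptor genes. Over all 11028 genes tested it called 537 lower and 409 higher. Without the block PTPN6 was the 1 call among the B-cell receptor genes (3.45% lower, against 3.24% of all genes).

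Of 31 germinal center and plasma cell factors, LMO2 and SERPINA9 were among those below the filter. The 26 tested moved in both directions, 3 higher and 2 lower. These are 11.5% and 7.69%, against 2.68% and 3.24% of all genes tested. BACH2, a repressor of plasma cell differentiation, was at 241, 301 and 224 CPM with shSIRT3-1 and at 389, 436 and 389 CPM with shSIRT3-2 (log2 difference 0.67, limma adjusted p = 0.0194). GCSAM rose by 0.61, while MYBL1, a germinal center transcription factor, and IKZF3, the lymphoid factor Aiolos, fell by 0.63 and 0.68. The calls of BACH2, GCSAM, MYBL1 and IKZF3 were each lost without at least 2 of the 6 libraries in turn, and IKZF3 reached limma adjusted p = 0.146. In the BCL2 family HRK, a proapoptotic BH3-only gene, was the 1 call of 16 (6.25% higher, against 2.68% of all genes). Its log2 difference was 0.81, and the call was lost in 5 of the 6 fits that left out a library. DICER1, the nuclease that cuts hairpins, was the 1 call among 17 small RNA genes (5.88% lower, against 3.24% of all genes). DICER1 was at 53.9, 69.1 and 53.1 CPM with shSIRT3-1 and at 35.2, 38.0 and 37.4 CPM with shSIRT3-2, against 32.1 to 42.0 CPM with shCTRL (log2 difference between hairpins -0.66, limma adjusted p = 0.0148). It lost the call without shSIRT3-1 replicate 2, shSIRT3-2 replicate 1 or shSIRT3-2 replicate 3, at up to limma adjusted p = 0.0571.

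In the other lines the contrast was called in 1179 of 10990 genes in Karpas422 (10.7%; 6.62% higher and 4.1% lower) and in 2599 of 11482 in HBL1 (22.6%; 12.1% higher and 10.5% lower). With 2 libraries a group, limma called 549 higher and 368 lower genes in Karpas422 and 1389 and 1247 in HBL1 without replicate 3, but without replicate 1 or replicate 2 it called 0 in either line, with 1575 and 1792 higher and 770 and 826 lower at an unadjusted p under 0.05 in Karpas422 and 1436 and 2012 higher and 1137 and 1377 lower in HBL1. In the fits of all 3 replicates many OCI-Ly1 calls recurred there. Of 243 genes higher in OCI-Ly1 and tested in Karpas422, 117 (48.1%) were called higher there too, against 6.41% of the genes tested in both lines, and 6 were called lower. Of 299 lower genes, 94 (31.4%, against 3.19%) were called lower and 11 higher. In HBL1 152 of 252 higher genes (60.3%, against 11.2%) and 137 of 291 lower genes (47.1%, against 9.83%) had the same call, and 7 and 25 the opposite one. Among genes tested in all lines, 89 of 227 higher (39.2%) and 45 of 263 lower genes (17.1%) were called alike in the 3 lines, while 2.92% and 1.03% of the 9789 genes were called so in both other lines.

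Of the genes called alike in the 3 lines, the 8 with the smallest p in OCI-Ly1 all kept that call with any library left out. The transmembrane protein gene TMEM64 was at 27.4, 24.7 and 27.6 CPM with shSIRT3-1 and at 63.6, 67.4 and 62.3 CPM with shSIRT3-2 in OCI-Ly1, a log2 difference of 1.28 that was 2.25 in Karpas422 and 3.14 in HBL1. G3BP2, a stress granule protein, was at 70.1, 56.3 and 67.8 CPM with shSIRT3-1 and at 156, 157 and 154 CPM with shSIRT3-2 (log2 difference 1.27 ± 0.09 SE). The kinases MAP2K4 and MAP3K3 rose by 1.35 and 1.37 and the zinc finger protein ZCCHC3 by 1.42. All 5 were called lower with shSIRT3-1 than with shCTRL, by 0.94 for MAP3K3 to 1.24 for TMEM64 on the log2 scale, and none was called with shSIRT3-2, where limma gave log2 differences of 0.04 to 0.43.

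RNF7, CMTM6 and RRAGC, the lower genes of the 8, had the reverse relation to the control. RNF7 differed by -2.02 in OCI-Ly1, -1.64 in Karpas422 and -2.17 in HBL1. CMTM6, which keeps PD-L1 at the cell surface, was at 52.4, 43.1 and 54.6 CPM with shSIRT3-1 and at 22.5, 19.7 and 21.9 CPM with shSIRT3-2 in OCI-Ly1, and its differences were -1.22, -1.24 and -1.28 in the 3 lines. RRAGC, a Rag GTPase that signals amino acid supply to mTORC1, differed by -1.39, -1.63 and -1.81. RNF7, CMTM6 and RRAGC were called lower with shSIRT3-2 than with shCTRL in OCI-Ly1, with log2 differences of -1.76, -1.44 and -1.22, and differed by 0.26, -0.22 and 0.17 with shSIRT3-1. These calls, and those of the 5 higher genes, held without any 1 control library.

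**Figure D3:**
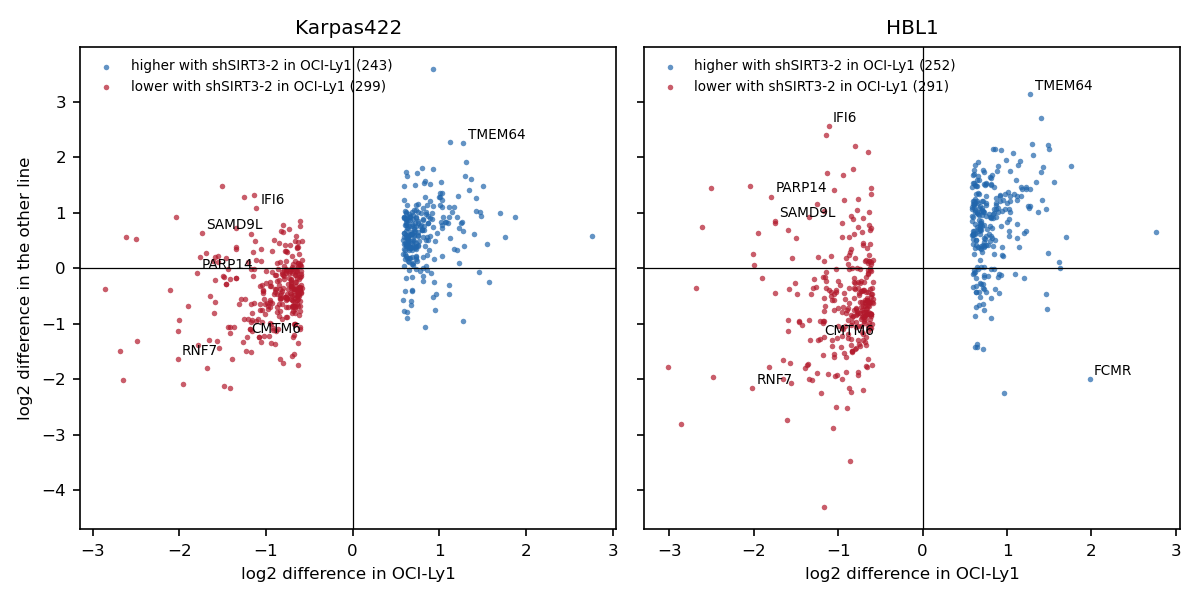
Log2 difference of shSIRT3-2 minus shSIRT3-1 in OCI-Ly1 (x axis) against the same difference in Karpas422 and in HBL1 (y axes), in log2 CPM, for genes called in OCI-Ly1 and tested in the other line. Most points lie in the quadrants of equal sign, with 117 and 152 higher and 94 and 137 lower genes called alike, and IFI6 and SAMD9L, interferon-stimulated genes, lie left of and above 0 in both panels.

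Of the 653 genes, interferon-stimulated genes included, the interaction was called against Karpas422 in 100, against HBL1 in 169 and against both in 56. These genes were chosen for their OCI-Ly1 difference, which is a term of the interaction, so nothing is read from their share. SP140, a chromatin reader of lymphoid nuclear bodies, was at 24.8, 18 and 25.9 CPM with shSIRT3-1 and at 9.11, 6.15 and 7.40 CPM with shSIRT3-2 in OCI-Ly1, a log2 difference of -1.59 that was -0.20 in Karpas422 and 0.68 in HBL1 (limma interaction adjusted p = 0.0139 and 0.000173). The endosomal ubiquitin ligase RNF13 rose by 1.12 and by 0.54 in each other line (limma interaction adjusted p = 0.0289 and 0.00947). ZCCHC10 rose by 0.73 and differed by -0.01 and 0.03 in the other lines (limma interaction adjusted p = 0.00878 and 0.00327). The adhesion gene CADM1, at 13.6, 9.41 and 11.5 CPM with shSIRT3-1 and 29.0, 36.8 and 26.2 CPM with shSIRT3-2 in OCI-Ly1, and MFGE8 were at most at 0.0318 and 0.350 CPM in the hairpin libraries of the other lines, so they were hardly expressed there.

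Seven-base words in 3′ UTRs were ranked by how far the genes that hold them moved between the hairpins in Karpas422 and HBL1 alone, and the leading words were then read in OCI-Ly1, whose libraries the ranking had not used. A 3′ UTR was found for 9232 of the 9789 genes tested in all lines, the longest per gene, and words were searched on the transcript strand. Of 13435 words in at least 200 genes, TGGTTGA led the words of lower genes and AAGTGTA those of higher genes. TGGTTGA occurs in 1059 3′ UTRs (11.5%) and AAGTGTA in 1331 (14.4%). AAGTGTA contains the six-base word AAGTGT, which led the six-base words of higher genes and occurs in 3969 3′ UTRs (43.0%). In OCI-Ly1, TGGTTGA was again the first of the 13435 words among lower genes, and AAGTGTA was the third among higher genes after AAGTGTT and AGTGTTA. With other word lengths, the six-base GGTTGA, first among lower genes in the other lines, ranked 7 of 4068 in OCI-Ly1, and AAGTGT ranked 1 among higher genes. The eight-base ATGGTTGA and AAGTGTAA, first among lower and higher genes there, each ranked 11 of 51987 in OCI-Ly1. A match describes the letters and is neither a binding site nor a cause, and the hairpin sequences were not analyzed here, so any relation of the words to the guide strands was not tested.

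Both words occur in the SIRT3 transcript, and the sites below are shown with the flanking bases because SIRT3 is the transcript that both hairpins are directed against. AAGTGT is in 43.0% of all 3′ UTRs. The share of all words that occur in SIRT3 was not counted, so nothing is read from the presence of these. Coordinates are hg19, the SIRT3 gene is on the minus strand, the sequence is that of the transcript from 5′ to 3′, and capitals mark the word. The first 2 are in coding exons 4 and 5, the next in coding exon 2 and the last in the 3′ UTR in exon 7 of 7.
SIRT3 exon 4, chr11:230513-230537: cctcaaagcTGGTTGAagctcatgg
SIRT3 exon 5, chr11:224115-224139: tgctgcatgTGGTTGAtttccccat
SIRT3 exon 2, chr11:233475-233498: gggtgcttcAAGTGTtgttggaag
SIRT3 exon 7, chr11:216246-216269: catgttccgAAGTGTagtcttgag

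Of the genes called alike in the 3 lines, the lower RNF7 and RRAGC hold TGGTTGA in the 3′ UTR and CMTM6 holds neither word. These genes were called in Karpas422 and HBL1, where the words were chosen, so they do not test the words. RRAGC also holds AAGTGT at 2 places, followed by C and by G. The higher G3BP2, MAP2K4, MAP3K3 and ZCCHC3 hold AAGTGT followed by A, T or G, and TMEM64 holds both AAGTGTA and TGGTTGA. The sites below are examples, in the 3′ UTR in the last exon of the transcript used (for ZCCHC3 its single exon), with the word and its last base in capitals.
RNF7, plus strand, chr3:141464477-141464501: gcatgcttaTGGTTGAtcagttaaa
RRAGC, minus strand, chr1:39304155-39304179: ttttgttgaTGGTTGAtaccctttc
RRAGC, minus strand, chr1:39304333-39304357: gattgcattTGGTTGAccacgagtg
RRAGC, minus strand, chr1:39304217-39304241: tctgacaccAAGTGTCaactgtggt
G3BP2, minus strand, chr4:76568394-76568418: acaaatgttAAGTGTAataatagaa
MAP2K4, plus strand, chr17:12046973-12046997: atggaatcgAAGTGTTtatgtaata
MAP3K3, plus strand, chr17:61771518-61771542: tttcattcaAAGTGTTattttgttt
ZCCHC3, plus strand, chr20:280002-280026: tgttgttagAAGTGTAtataatctg

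The differences by word were small in the median and larger in the share of called genes. In OCI-Ly1 the median log2 difference was -0.08 for 773 genes with TGGTTGA alone, 0.07 for 1045 with AAGTGTA alone, 0.04 for 286 with both and -0.02 for 7128 with neither. Of the genes with TGGTTGA alone 6.47% were called lower and 2.07% higher. Of those with AAGTGTA alone 0.861% were called lower and 5.55% higher, and of those with neither 2.53% and 1.85%. Genes with AAGTGT exceeded those without it by a median of 0.09, and genes with TGGTTGA differed from those without it by -0.04, with the same sign in each of the 3 same-numbered pairs for both words. Among 221 higher genes with a 3′ UTR, 170 (76.9%) hold AAGTGT, and among 247 lower genes 58 (23.5%) hold TGGTTGA. This word is in 15 of the 42 genes lower in all 3 lines (35.7%) and in 11 of the 99 lower in OCI-Ly1 and in neither other line (11.1%), against 11.5% of all genes. AAGTGT is held by 74 of 86 genes higher in all 3 lines (86.0%) and by 43 of 62 higher in OCI-Ly1 and in neither other line (69.4%), against 43.0% of all genes. The words were chosen in Karpas422 and HBL1, and calls in these lines also picked the genes called in all 3 lines and those called in neither other line. The shares in both sets therefore do not test the words, and nothing is read from the contrast between the sets. The median 3′ UTR was longer in the higher genes (2723 bases) and the lower genes (1711) than in all genes (1532), and a longer 3′ UTR holds any word more often.

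Shares were also computed by 3′ UTR length and base composition. In the short, middle and long groups of 3′ UTRs, split at 900 and 2407 bases, 3.45%, 3.09% and 5.08% of genes with AAGTGT were called higher, against 0.561%, 1.43% and 1.29% of those without it. For TGGTTGA the shares called lower were 6.17%, 9.27% and 4.11% with the word and 2.03%, 2.94% and 1.92% without it. The median share of A and T was 61.3% in the 3′ UTRs of higher genes, 57.6% in those of lower genes and 57.7% in all, and in the groups of low, middle and high share 3.98%, 3.76% and 4.89% of genes with AAGTGT were called higher, against 0.8%, 0.861% and 1.38% without it. The part of length and base composition in the result was not tested further. Genes that hold TGGTTGA in the coding sequence and not in the 3′ UTR were called lower in 2.39% of cases, against 2.31% of those without it in either. The split by coding sequence is given for TGGTTGA only, and that by base composition for AAGTGT only.

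Against the control, the words went with different hairpins. Genes with TGGTTGA differed from those without it by a median of -0.07 with shSIRT3-2 and -0.01 with shSIRT3-1, and genes with AAGTGTA by -0.08 with shSIRT3-1 and -0.01 with shSIRT3-2. These contrasts share the control libraries. Of the 28 interferon-stimulated genes 1 holds TGGTTGA and 6 hold AAGTGT, shares of 3.57% and 21.4%, against 11.5% and 43.0% of all genes with a 3′ UTR.

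**Figure D4:**
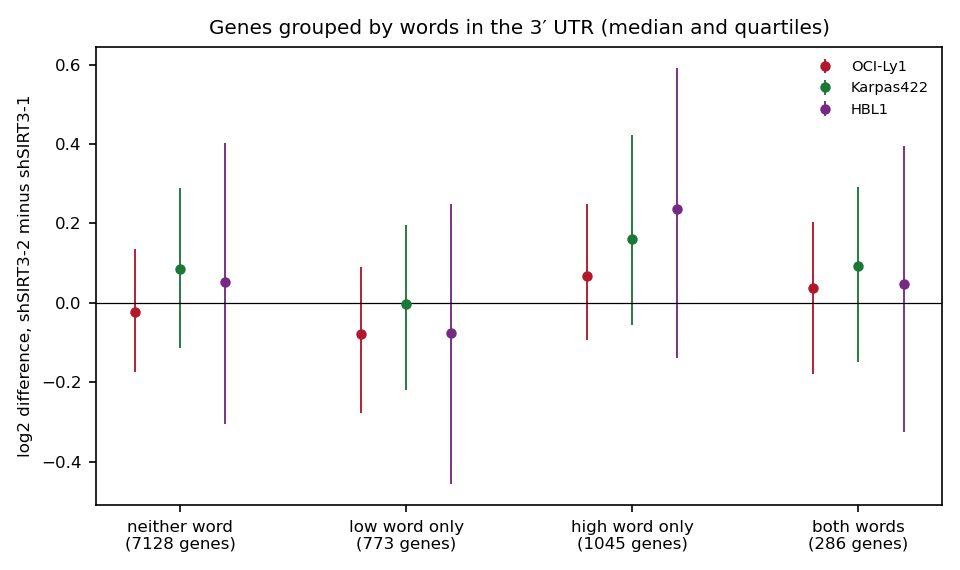
Median log2 difference of shSIRT3-2 minus shSIRT3-1 (y axis, log2 CPM, bars from the lower to the upper quartile over genes) for genes with neither word, TGGTTGA alone, AAGTGTA alone or both in the 3′ UTR, by word group (x axis) and cell line (color). In OCI-Ly1 the medians are -0.02, -0.08, 0.07 and 0.04, and the quartile ranges overlap.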

How the data were processed

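The authors extracted total RNA on day 8 after infection, prepared TruSeq libraries primed with random oligos, aligned paired reads to hg19 with STAR and counted RefSeq genes with Rsubread (versions are not given in the sources used here). The deposited values are named FPKM, but within a library all genes share the same smallest increment and no gene length enters, so they are CPM and were used as such. Levels were not compared between genes. The tests had been planned for the named unit and were kept. The authors' CPM summed to 40.3% to 45.6% of the library total used for scaling.

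Log2(CPM + 0.1) was fitted with limma 3.58.1 (R 4.3.3, moderated, with variance trend) for genes at 1 CPM or more in at least 3 fitted libraries, with Benjamini-Hochberg adjustment over all genes tested. Calls needed an adjusted p under 0.05 and a fold above 1.5, interactions the adjusted p alone. edgeR 4.0.16 and DESeq2 1.42.0 were run only as alternatives, on reads recovered from the CPM steps. The spread of a group rests on 3 libraries; no pair of libraries within a group agreed within sampling noise.

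Replicate numbers come from the labels. Same-numbered libraries of the 2 hairpins correlated in their deviations from the group means at 0.487, 0.606 and 0.622 in OCI-Ly1 and 0.454 to 0.53 in the other lines. Those of shCTRL and either hairpin correlated at 0.138 to 0.342. In OCI-Ly1, shSIRT3-2 replicate 1 correlated more with shSIRT3-1 replicate 3 (0.509) than with shSIRT3-1 replicate 1. Replicate 2 of either hairpin correlated with replicates 1 and 3 of the other at -0.668 to -0.347. A fit with the replicate block was read beside the main one, and whether it captures more than replicate 2 was not tested.

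Named genes were SIRT3, the 12 lowest and 12 highest differences among called genes with a mean of 5 CPM or more in the higher hairpin and libraries that do not overlap, up to 4 members per list by p and further called members, up to 8 genes called alike in 3 lines, and up to 8 whose interaction was called against both other lines. Cell type markers at or near 0, CHAC1 and interferon-stimulated genes beyond this rule were named after their values were seen. The genes, lists and tests were chosen with earlier results of these data known. Coordinates, transcripts and 3′ UTRs are those of GENCODE mapped to hg19. The word search and the fit without replicate 2 of both hairpins were added after seeing the data. Alternatives covered the pseudocount, filter, scaling, tool, libraries fitted and single libraries. Models and word counts were tested on simulated data. Some members of these lists are counted but not reported here by name.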

Additional observations from a re-analysis of the deposited data

Results flagged for a closer look

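For 20 of the genes named, the difference between the hairpins in OCI-Ly1 differed from that in both HBL1 and Karpas422 by limma's interaction test. Without replicate 1, with 2 libraries a group, limma called the interaction against Karpas422 in 0 genes (301 higher and 534 lower at an unadjusted p under 0.05) and against HBL1 in 3 higher and 3 lower, so none kept the call against both. Values are the OCI-Ly1 difference minus that of HBL1 and then of Karpas422, on the log2 scale. Of the interferon-stimulated genes, the values were -3.94 and -3.04 for IFI44L, -3.68 and -2.20 for IFI6, -3.55 and -2.46 for OAS3, -3.53 and -2.98 for XAF1, and -3.36 and -3.18 for IFI44. They were -3.09 and -1.70 for PARP14, -2.60 and -2.38 for SAMD9L, -2.41 and -2.53 for HERC6, and -2.28 and -2.07 for OAS1, and the smallest were -1.94 and -1.47 for IFI35 and -1.51 and -1.05 for BST2. IFI44L, XAF1, IFI44 and HERC6 passed the OCI-Ly1 filter only through shSIRT3-1, so their lower level with shSIRT3-2 was fixed. The chromatin reader SP140 was also lower in OCI-Ly1, by -2.27 and -1.38.

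The genes that rose more in OCI-Ly1 than in either other line were NAV3 (3.46 and 3.30), C10orf71 (2.26 and 2.43), MFGE8 (1.48 and 2.15) and CADM1 (1.49 and 1.54), all at or below 0.350 CPM in every hairpin library of both other lines. PHYH (2.12 and 2.18), the ubiquitin ligase RNF13 (0.58 and 0.58) and ZCCHC10 (0.70 and 0.74) were also higher. FCMR, the immunoglobulin M receptor, differed by 3.98 and 2.17. It was near 0 in Karpas422, while in HBL1 it was lower with shSIRT3-2, at a mean of 4.66 CPM against 20.5 CPM with shSIRT3-1.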

How the results depend on the processing

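Calls depended on the libraries more than on the scale. The replicate block gave 537 lower genes, DESeq2 523 higher and 632 lower genes, and leaving out libraries 122 to 360 higher and 98 to 409 lower genes, the highest of both in the fit that left out replicate 2 of both hairpins together. Lower interferon-stimulated genes numbered 9 in the fit of all 27 libraries and 6 to 16 with a library left out. Against shCTRL the block gave 348 genes higher with shSIRT3-1, and leaving out libraries gave 51 to 551 higher and 90 to 582 lower genes with shSIRT3-1 and 64 to 511 higher and 132 to 810 lower genes with shSIRT3-2. In the other lines leaving out a replicate number gave 0 to 549 higher and 0 to 368 lower genes in Karpas422 and 0 to 1389 higher and 0 to 1247 lower genes in HBL1. The counts of 0 are limma's, and edgeR was not run there. At an unadjusted p under 0.05 they held 1575 higher and 770 lower (Karpas422 without replicate 1), 1792 and 826 (without replicate 2), 1436 and 1137 (HBL1 without replicate 1), and 2012 and 1377 (without replicate 2). The interaction against Karpas422 gave 115 lower genes with quantile scaling, 402 higher and 698 lower with the block, and 0 to 226 higher and 0 to 259 lower with a replicate number left out, where the 0 without replicate 1 held 301 higher and 534 lower genes at an unadjusted p under 0.05. Against HBL1 it gave 1726 higher and 2413 lower with the block and 3 to 830 higher and 3 to 1139 lower. These fits hold fewer libraries. No named gene turned from a call to the opposite sign, but the split of 296 higher and 357 lower genes turned to 381 and 305 with median-ratio and 339 and 314 with quantile scaling. Of 2795 values for single genes 2541 kept their call, 193 lost and 61 gained it. Of 15 values for the 3′ UTR words, 6 moved by more than the spread of the same-numbered pairs, and all kept their sign. With the block no gene called without it was lost. The effect of read depth on the calls was not tested.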
